A study of Homo sapiens with 42 samples.

Results

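The G8 libraries with end repair were set against the libraries labelled mock with end repair, 3 against 3, which are 6 of the 42 small RNA libraries that the labels describe, chosen by title alone. G8 is one of several groups of THP-1, a human monocytic leukaemia line, from a study of knockouts of POLR3G and POLR3GL. Which of these genes was disrupted in G8, by what means, and whether G8 is a single clone cannot be read from the labels. Mock is HEK293T, a human embryonic kidney line, given 200 nM of a control antisense oligonucleotide with a lipid reagent, while no oligonucleotide is named for G8. The labels describe extraction with mirVana PARIS for THP-1 cells, and all 6 libraries were made with the NEBNext Small RNA kit after treatment with a phosphatase and polynucleotide kinase (PNK). The THP-1 group con is not analysed here. Cell line, gene disruption and oligonucleotide therefore cannot be told apart in any difference given below. The same holds in these bulk samples for fewer cells of a type and less RNA per cell.

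POLR3G and POLR3GL are alternative versions of one subunit of RNA polymerase III (Pol III). Pol III makes short structured RNAs: transfer RNAs, 5S ribosomal RNA, the U6 spliceosomal RNA, 7SK, the RNA parts of RNase P and RNase MRP, the 7SL RNA of the signal recognition particle, and the vault and Y RNAs. Library kits of this kind ligate RNA with a 5′ phosphate and a 3′ hydroxyl, the ends of a mature microRNA. End repair lets in RNA with other ends, so that fragments of ribosomal, transfer and long RNAs enter the library beside whole small RNAs. Neither POLR3G nor POLR3GL was measured here, since protein-coding genes are not counted.

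Counts fell on 84735 rows kept from the count table so that they do not overlap, short structured RNAs first. The kept counts summed to 6826931, 6601828 and 7680802 in G8 libraries 1, 2 and 3, against 6731538, 7733993 and 6556219 in mock libraries 1, 2 and 3, and the 10 most abundant rows held 46.2% to 52.5% of each. In both groups 1 library stood apart from the other pair. The correlation of log2 CPM (counts-per-million, scaled with edgeR's TMM factors) was 0.971 between G8 libraries 1 and 2 but 0.925 and 0.928 between each and library 3, and 0.982 between mock libraries 2 and 3 but 0.955 and 0.956 between each and library 1. MicroRNA took 0.160%, 0.133% and 0.402% of the counts of G8 libraries 1, 2 and 3, against 0.345%, 0.327% and 0.3002% in mock libraries 1, 2 and 3. The first pair of G8 libraries is thus low in microRNA and the third is above every mock library. The means were 0.232 ± 0.148% in G8 and 0.324 ± 0.0223% in mock (SD, n = 3 each; exact two-sided permutation test, p = 0.4, with 0.1 the smallest p that 3 against 3 allows). The values of the leading rows and sums are therefore given library by library, and calls and counts that change without G8 libraries 1 and 2 are given in that setting too.

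The libraries labelled mock went against their cell line label. Of 11 genes listed as markers of blood cells, 5 had counts with end repair. Their summed level was 48.9, 38.0 and 120 CPM in G8 libraries 1, 2 and 3, against 78.4, 75.7 and 75.9 CPM in mock libraries 1, 2 and 3. MIR142, a microRNA of the blood lineage, stood at 11.4, 10.5 and 21.5 CPM in G8, against 13.6, 13.9 and 10.3 CPM in mock. MIR223, a microRNA of myeloid cells, stood at 2.18, 2.32 and 8.23 CPM in G8, against 3.88, 5.82 and 6.46 CPM in mock. The microRNAs of lymphoid and red cells on the list, MIR150, MIR144 and MIR451A, were at 0 counts in all 6 libraries. Of 7 epithelial microRNAs 4 had a count, and they summed to 0.545, 0.179 and 0.778 CPM in G8, against 0, 0.301 and 0.479 CPM in mock. In the untreated aliquots of the same groups, the blood list had 7243, 8211 and 69159 counts in G8, against 74044, 91981 and 54175 in mock. With end repair, the summed level of the list in the libraries labelled mock thus lay above that of G8 libraries 1 and 2 and below that of G8 library 3, while single members such as MIR142 and MIR342 did not keep that order. These libraries are called by their label throughout.

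Sequences of RNAs that the results turn on are given here, read from GENCODE v29 (GRCh38) unless said otherwise. The vault RNAs of the VTRNA1 cluster on chromosome 5 are shown because VTRNA1-2 was the vault RNA that passed the test. Capitals mark the B box of the internal Pol III promoter, searched as GTTCGANNC on the printed strand, which 0.21% of GENCODE transcripts of 60 to 120 bases hold.
VTRNA1-1: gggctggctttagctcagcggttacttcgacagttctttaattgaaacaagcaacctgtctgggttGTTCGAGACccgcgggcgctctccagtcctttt
VTRNA1-2: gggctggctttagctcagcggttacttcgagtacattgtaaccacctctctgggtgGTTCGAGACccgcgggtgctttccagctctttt
VTRNA1-3: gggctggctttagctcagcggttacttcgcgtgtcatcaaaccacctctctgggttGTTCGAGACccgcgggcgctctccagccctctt
VTRNA1-2 and VTRNA1-3 have the same base at 77 of 89 positions.

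The next set holds C/D box snoRNAs that rose and that are described below. Capitals mark every TGATG, the letters of the core of a C box, and every CTGA, those of a D box, on the printed strand. The search was by letters alone, so a marked run need not be a box. Both runs of letters occur together in 10.1% of GENCODE transcripts of 60 to 120 bases.
SNORD121A: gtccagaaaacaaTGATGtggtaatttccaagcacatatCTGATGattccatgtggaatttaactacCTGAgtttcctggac
SNORD121B: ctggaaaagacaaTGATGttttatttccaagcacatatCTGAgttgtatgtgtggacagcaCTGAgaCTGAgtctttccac
SNORD42B: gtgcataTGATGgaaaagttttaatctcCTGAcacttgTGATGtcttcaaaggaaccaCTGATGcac
SNORD121A and SNORD121B lie on chromosome 9 at 33952769 to 33952850 and 33934296 to 33934376 on the minus strand, and SNORD42B on chromosome 17 at 28720550 to 28720616 on the plus strand.

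The last set holds mature microRNAs from RefSeq (GRCh38.p14) with the seed, bases 2 to 8, in capitals. The first pair checked the cell type, and the others are of the microRNA row with the highest mean count and of the let-7 member described below. No pair of these shares a seed.
hsa-miR-142-3p: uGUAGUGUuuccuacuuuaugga
hsa-miR-223-3p: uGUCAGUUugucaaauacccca
hsa-miR-92a-3p: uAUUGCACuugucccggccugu
hsa-let-7i-5p: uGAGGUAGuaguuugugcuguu
The rows of MIR142, MIR223 and MIRLET7I span whole hairpins, so their counts can hold reads of either arm, while the row of MIR92A1 spans the mature sequence printed here.

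Across all 9531 rows tested, edgeR's quasi-likelihood test called 552 at a Benjamini-Hochberg adjusted p under 0.05, or 5.79%, with 280 higher in G8 (2.94%) and 272 lower (2.85%). In all, 1967 rows, 20.6%, had an unadjusted p under 0.05. The median log2 fold change, G8 minus mock, was 0.03. With library totals in place of TMM factors the split was 91 higher and 690 lower and the median -0.32, so every log2 value below is relative to a zero that another scaling moves by about that much. Summed by RNA family, 5 of 32 sums were called, 15.6%: U6, U6 pseudogenes, 7SK, the RNase P RNA and 18S, 28S and 5.8S rRNA, all higher in G8. In 7 of the 32 sums, 21.9%, all 3 G8 libraries lay above all 3 mock libraries, and in 2, 6.25%, below.

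**Figure D1:**
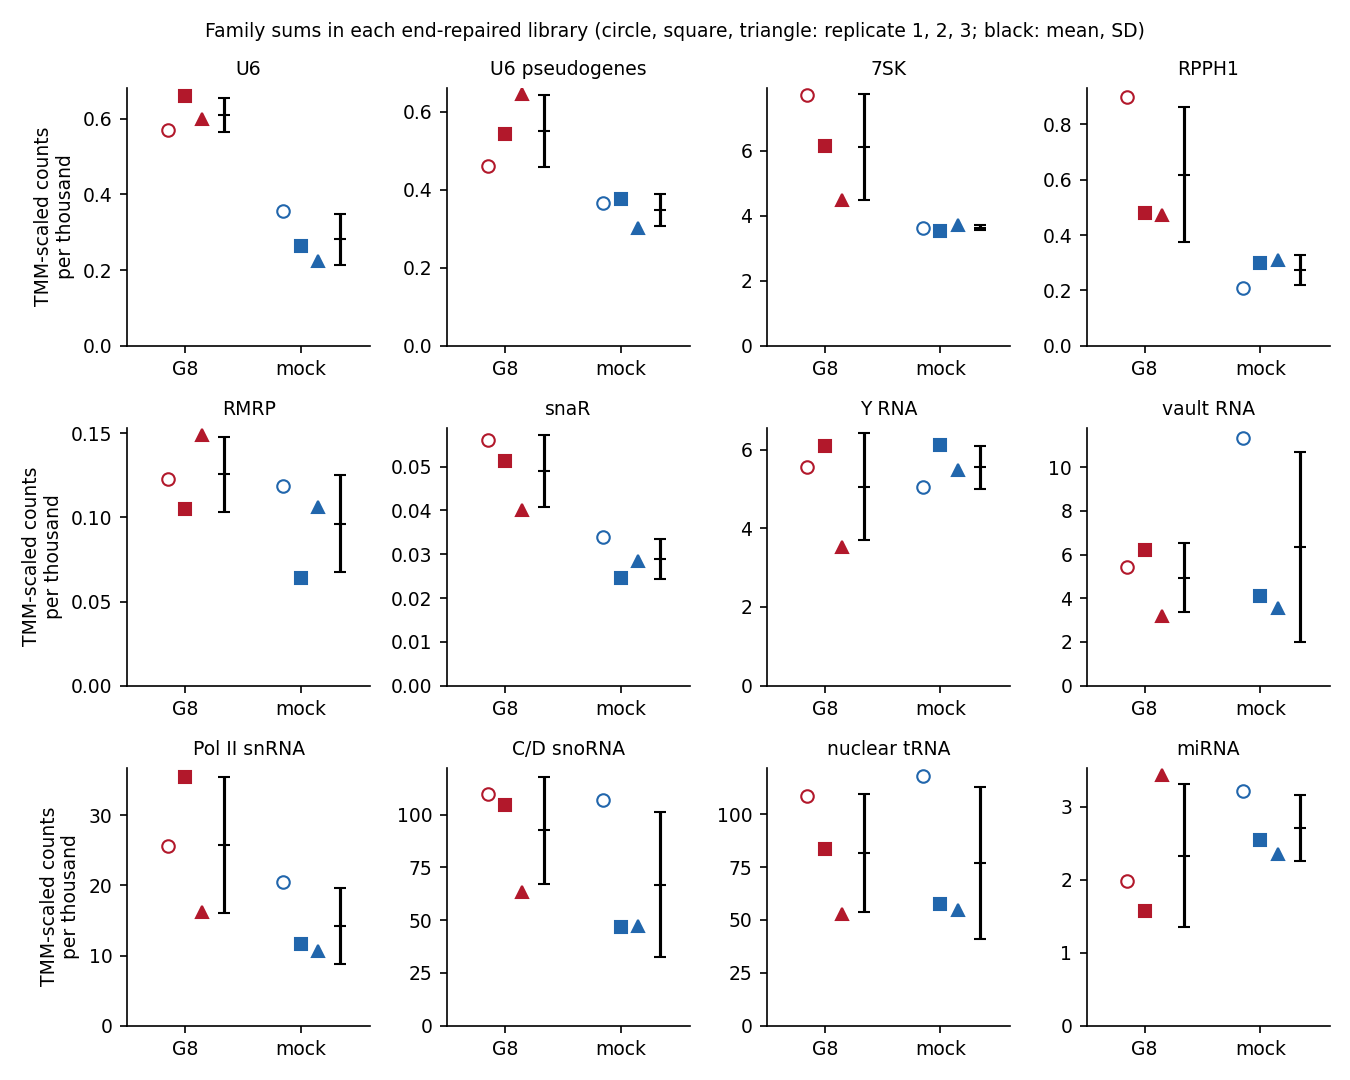
Level of 12 RNA families in each end-repaired library, as TMM-scaled counts (y axis, from 0, unit on the axis), G8 in red left of mock in blue, with circle, square and triangle for replicates 1, 2 and 3 and black bars for mean and SD. The groups separate for U6, U6 pseudogenes, 7SK, RPPH1 and snaR, while the vault, C/D snoRNA and nuclear tRNA sums of mock replicate 1 lie far above those of mock replicates 2 and 3.

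U6 RNA, the catalytic core of the spliceosome, was higher in G8. The sum of its 9 rows was 571, 660 and 598 CPM in G8 libraries 1, 2 and 3, against 356, 263 and 224 CPM in mock libraries 1, 2 and 3. All 3 G8 libraries lay above all 3 mock libraries, G8 library 3 as much as the other pair. The difference was 1.12 on the log2 scale (SE 0.176, adjusted p = 0.00141, edgeR on family sums). All 9 U6 rows rose, by 0.86 to 1.45, against a background of 2.94% of rows called higher, but the copies are nearly identical and share reads, so they are not independent of each other. With library totals 5 of the 9 were called, and without G8 libraries 1 and 2 only 2. The U6 copy on chromosome 14 at 32203164 to 32203269, which had the highest fold change of the 9, stood at 52.2, 69.3 and 66.2 CPM in G8, against 28.7, 20.8 and 19.2 CPM in mock (adjusted p = 0.00218). The family difference ran from 0.77 with library totals to 1.33 without mock library 1. It missed the threshold without G8 libraries 1 and 2 together, at 1.03 with an adjusted p of 0.064, where the lone G8 library is assumed to vary like the other groups. In the untreated aliquots U6 took 0.00130%, 0.00112% and 0.00136% of counts in G8, against 0.00144%, 0.00143% and 0.00161% in mock.

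Rows annotated as U6 pseudogenes, which can take reads of U6 itself, had a sum of 461, 543 and 646 CPM in G8, against 366, 377 and 302 CPM in mock. The groups do not overlap, and the sum was higher by 0.66 on the log2 scale (SE 0.179, adjusted p = 0.0264). This call was lost with library totals (0.33, adjusted p = 0.375) and without G8 libraries 1 and 2 (0.83, adjusted p = 0.0692). Of its 45 tested rows 6 rose and none fell, against 2.94% and 2.85% over all rows, and the median row was at -0.02. Without G8 library 3, 6 rose and 7 fell with a median of -0.86, and without G8 libraries 1 and 2, 7 rose and 1 fell with a median of 0.68. RNU6ATAC, the U6 counterpart of the minor spliceosome, had 4, 18 and 27 counts in G8, against 20, 28 and 22 in mock, too few to show a difference.

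7SK, the RNA that holds the elongation factor P-TEFb inactive, stood at 7709, 6150 and 4469 CPM in G8 libraries 1, 2 and 3, against 3633, 3541 and 3716 CPM in mock. The mock libraries lay within 200 CPM of each other, while the G8 libraries spread over more than 3000 CPM with library 3 nearest to mock. As a family sum it was higher by 0.75 (SE 0.169, adjusted p = 0.0142). In the fit over all rows the same counts missed the threshold (adjusted p = 0.0759). The call also ended with library totals (0.34, adjusted p = 0.145) and without G8 libraries 1 and 2 (0.24, adjusted p = 0.435).

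RPPH1, the RNA component of RNase P that trims the 5′ ends of tRNA precursors, stood at 899, 480 and 473 CPM in G8, against 210, 298 and 309 CPM in mock. G8 library 1 was the highest, and every G8 library lay above every mock library. The sum was higher by 1.18 (SE 0.360, adjusted p = 0.0441), and by row the adjusted p was 0.0504. With library totals the call of the sum ended (0.75, adjusted p = 0.145). Without G8 library 1 the difference was 0.81 (adjusted p = 0.177), and without G8 libraries 1 and 2 it was 0.74 (adjusted p = 0.394). RMRP, the related RNA of RNase MRP that acts in ribosomal RNA processing, stood at 122.7, 105 and 149 CPM in G8, against 119, 63.8 and 106 CPM in mock. Its groups overlap, and it was not called (0.39, SE 0.391, adjusted p = 0.638).

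Of the vault RNAs, 1 of 4 passed the test. VTRNA1-2 stood at 17.4, 19.3 and 18.7 CPM in G8, against 13.6, 8.73 and 10.2 CPM in mock, and rose by 0.78 (SE 0.210, adjusted p = 0.0374). That call was lost with library totals (0.43) and without G8 libraries 1 and 2 (0.74). VTRNA1-1, a vault RNA that binds the autophagy receptor p62, stood at 568.5, 879 and 517 CPM in G8, against 739, 403 and 344 CPM in mock, and was not called (0.40, SE 0.292, adjusted p = 0.483). VTRNA1-3 had 2, 1 and 16 counts in G8, against 16, 12 and 10 in mock.

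VTRNA2-1, also called nc886, is a Pol III transcript that inhibits the kinase PKR. It lies on chromosome 5 at 136080497 to 136080597 and stood at 4848, 5324 and 2639 CPM in G8, against 10590, 3693 and 3199 CPM in mock. Mock library 1 held more than any other of the 6 libraries, and G8 library 3 the least. The row was not called (-0.45, SE 0.398, adjusted p = 0.584), and neither was the vault sum (-0.36, SE 0.403, adjusted p = 0.629).

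Among the Y RNAs, which bind the Ro60 protein, no row passed the test. RNY5 stood at 442, 401 and 163 CPM in G8, against 186, 179 and 173 CPM in mock (0.90, SE 0.325, adjusted p = 0.114). Its G8 libraries 1 and 2 were well above mock and its library 3 was below. RNY4 stood at 2420, 2318 and 1714 CPM in G8, against 3184, 3447 and 3145 CPM in mock, with every G8 library below every mock library (-0.60, SE 0.249, adjusted p = 0.176). RNY1 and RNY3 gave 0.35 and 0.22 and overlapped between groups. The sum of the 4 was -0.13 (SE 0.208, adjusted p = 0.773). With library totals RNY4 was called lower (-1.001, adjusted p = 0.0128), and the sum of the 4 was -0.56 (adjusted p = 0.0592).

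Y RNA pseudogenes, whose rows can take reads of the Y genes, leaned lower. Of 160 tested rows 8 fell and none rose, against a background of 2.85% called lower, and the median was -0.57 against 0.03 over all rows. In 44 of the 160 all 3 G8 libraries lay below all 3 mock libraries and in 1 above, where groups do not overlap, in either direction, in 23.4% of all rows. Their sum was 6952, 6614 and 4607 CPM in G8, against 8173, 8201 and 7315 CPM in mock, and was not called (-0.38, SE 0.202, adjusted p = 0.296). Again 8 rows fell and none rose without G8 libraries 1 and 2. With library totals 27 rows fell and the sum was called lower (-0.79, adjusted p = 0.0174).

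The snaR RNAs, small non-coding RNAs that bind the double-stranded RNA protein NF90, were all on the higher side without a call. Of 12 tested rows, 10 had every G8 library above every mock library and none below, against 23.4% of all rows with separate groups in either direction. Their sum was 56.0, 51.2 and 40.0 CPM in G8, against 33.8, 24.6 and 28.4 CPM in mock. It gave 0.76 (SE 0.442, adjusted p = 0.323). The copies share reads, so the 12 rows are close to 1 measurement. The 7SL genes RN7SL1, RN7SL2 and RN7SL3 gave 0.24, 0.35 and 0.22 with overlapping groups.

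5S rRNA, the Pol III transcript of the large ribosomal subunit, took 0.794%, 0.442% and 0.454% of counts in G8, against 1.04%, 0.420% and 0.498% in mock. Replicate 1 was the highest in both groups, and the sum did not pass the test (0.17, SE 0.461, adjusted p = 0.826). The 5S pseudogene rows leaned lower, with 11 of 55 fallen and none risen, against 2.85% and 2.94% over all rows, and a median of -0.50. That median was 0.01 without mock library 1, with 10 rows fallen, and -0.15 without G8 library 2, with 7 fallen. Without G8 library 3, 6 rows rose and 12 fell. One of them, inside the gene FIG4 on chromosome 6 at 109753150 to 109753255, stood at 6.91, 4.64 and 6.12 CPM in G8, against 18.3, 9.74 and 11.5 CPM in mock (-1.15, SE 0.248, adjusted p = 0.0105), and its call ended without G8 libraries 1 and 2 (adjusted p = 0.129). In that setting only 1 of the 5S pseudogene rows was called, and with library totals 18 were, all lower.

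**Figure D2:**
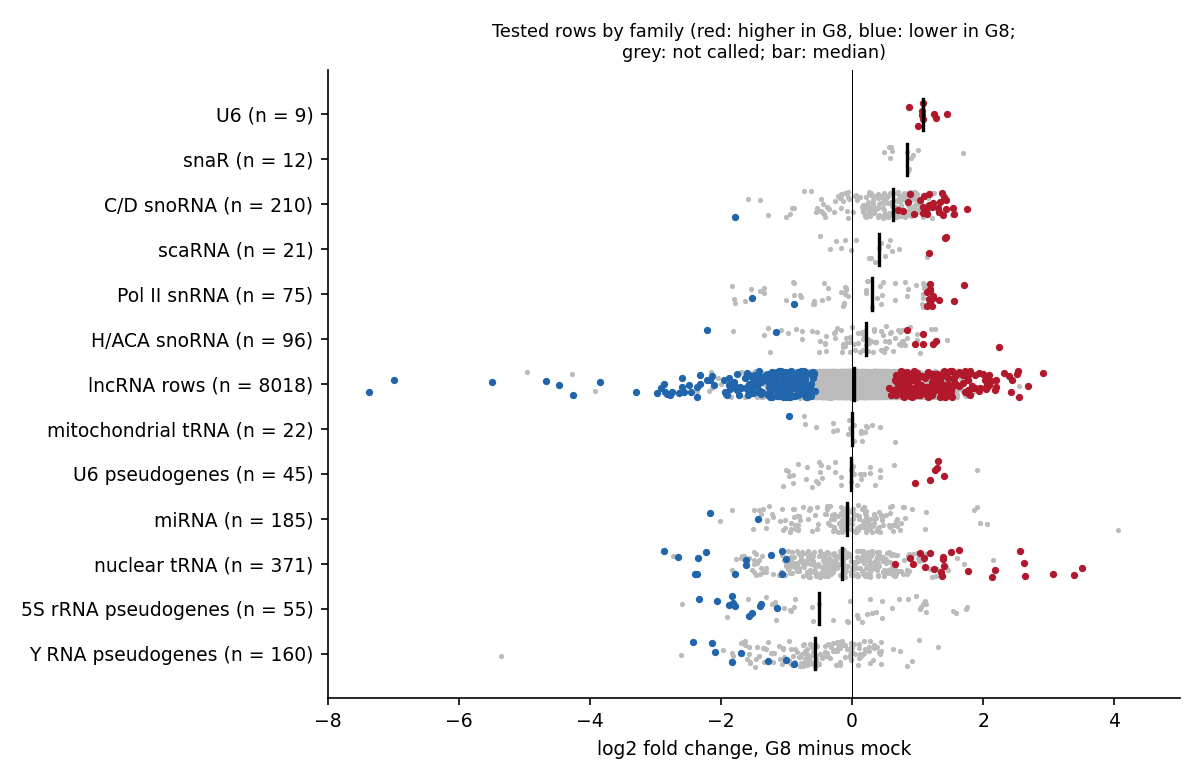
Log2 fold change, G8 minus mock (x axis), of every tested row in 13 RNA families (y axis, number of rows in brackets), with red for rows called higher in G8, blue for rows called lower, grey for rows not called and a black bar for the family median. U6 and snaR lie wholly right of 0, C/D snoRNA has 26 red rows and 1 blue, and the 5S and Y RNA pseudogenes have blue rows only.

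Nuclear tRNA as a whole took 8.76%, 7.09% and 6.21% of counts in G8, against 12.7%, 7.40% and 6.996% in mock. On the TMM scale the sum was 0.09 higher in G8 (SE 0.309, adjusted p = 0.831), and with library totals it was 0.30 lower (-0.30), neither of them called. Of 371 tested rows 24 rose, 13 fell and 334 did not pass, with a median of -0.16. Over all rows 2.94% were called higher and 2.85% lower. Without G8 libraries 1 and 2, 22 rose and 3 fell with a median of 0.08, while without G8 library 3, 35 rose and 71 fell with a median of -0.44. With library totals 10 rose and 44 fell. The balance of rises and falls among tRNA rows thus turns with the G8 libraries used and with the scaling. Copies with one anticodon share reads, and the table has no strand.

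None of the 48 isoacceptor sums (tRNA rows added by amino acid and anticodon) was called, 0.0%, while 16 had an unadjusted p under 0.05 (33.3%), 10 of them higher (20.8%) and 6 lower (12.5%). All 3 G8 libraries lay above all 3 mock libraries in 6 sums (12.5%) and below in 7 (14.6%). The lowest adjusted p was 0.062, reached by 5 sums. Alanine tRNAs stood together on the higher side. Ala-AGC was at 78.3, 71.4 and 149 CPM in G8, against 51.7, 45.7 and 52.0 CPM in mock (1.00, SE 0.314). Ala-CGC was at 19.3, 11.4 and 63.5 CPM in G8, against 10.7, 11.2 and 10.1 CPM in mock (1.57, SE 0.484). In both, G8 library 3 was far above G8 libraries 1 and 2, which exceeded mock by much less. Ala-TGC had overlapping groups, again with G8 library 3 the highest, at 49.1, 35.5 and 122.9 CPM in G8, against 43.3, 18.8 and 18.3 CPM in mock (adjusted p = 0.111).

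Arg-TCT went the other way within G8, at 392, 297 and 100 CPM in libraries 1, 2 and 3, against 88.3, 137 and 86.4 CPM in mock (1.34, SE 0.406). Here libraries 1 and 2 were high and library 3 lay inside the mock range. Asp-GTC had the largest fall of the sums, at 847, 1250 and 1859 CPM in G8, against 9740, 2255 and 2316 CPM in mock (-1.86, SE 0.490). Mock library 1 was about 4 times as high as the other mock libraries, and all 3 G8 libraries were below those too. Glu-TTC was at 511, 466 and 953 CPM in G8, against 2159, 1145 and 995 CPM in mock (-1.16, SE 0.344). Glu-CTC, which alone took 7.79%, 6.19% and 3.79% of counts in G8, against 9.93%, 4.72% and 4.22% in mock, did not differ beyond its spread (0.31, SE 0.430, adjusted p = 0.588).

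**Figure D3:**
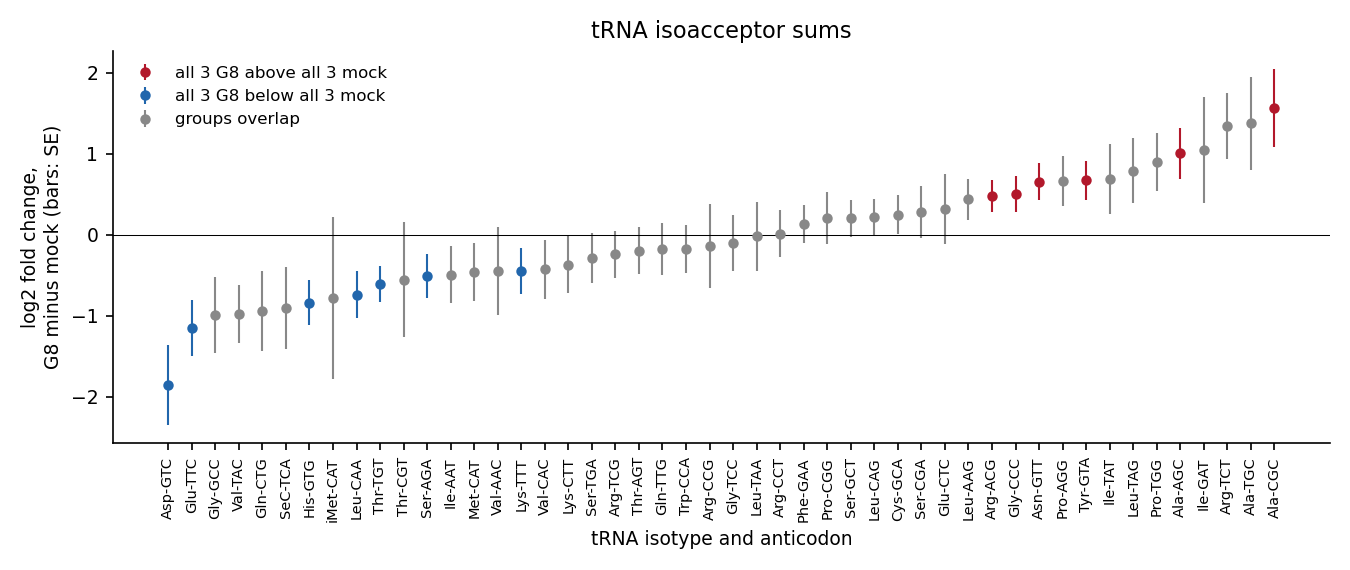
Log2 fold change, G8 minus mock, with its SE (y axis) for the 48 tRNA isoacceptor sums (x axis, ordered by fold change), with red where all 3 G8 libraries lie above all 3 mock libraries, blue where all lie below and grey where the groups overlap. The sums run from -1.86 for Asp-GTC to 1.57 for Ala-CGC, 6 are red, 7 are blue, and none passed the adjusted test.

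Single tRNA copies moved further than the sums. tRNA-Arg-TCT-5-2, on chromosome 9 at 128340076 to 128340166, stood at 7.27, 8.03 and 4.78 CPM in G8, against 0.832, 1.30 and 0.958 CPM in mock. It rose by 2.63 (SE 0.354, adjusted p = 0.000313) with all G8 libraries above mock, library 3 included. tRNA-Ala-TGC-2-1, on chromosome 12 at 124921755 to 124921826, stood at 5.63, 4.11 and 20.2 CPM in G8, against 2.91, 2.11 and 2.16 CPM in mock (2.13, SE 0.484, adjusted p = 0.0143). tRNA-Ile-TAT-1-2 stood at 1.999, 3.04 and 4.45 CPM in G8, against 1.25, 0.803 and 1.44 CPM in mock, and rose (1.504, adjusted p = 0.0174). Its call ended with library totals (adjusted p = 0.0763). With only the 6 G8 and mock libraries fitted, the calls of tRNA-Ala-TGC-2-1 (adjusted p = 0.0907) and tRNA-Ile-TAT-1-2 (adjusted p = 0.088) ended. Both also ended with the replicate number as a block (adjusted p = 0.0844 and 0.0943).

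Among copies that fell, tRNA-Glu-TTC-3-1 on chromosome 1 at 161422093 to 161422164 stood at 67.8, 65.2 and 37.9 CPM in G8, against 679, 324 and 247 CPM in mock (-2.87, SE 0.362, adjusted p = 0.00018). tRNA-Leu-CAA-1-1 on chromosome 6 stood at 2.00, 0.714 and 2.22 CPM in G8, against 16.1, 9.24 and 7.66 CPM in mock (-2.66, adjusted p = 0.00018). In both rows even the lowest mock library was more than 3 times the highest G8 library. tRNA-Asp-GTC-1-2, inside LTA4H on chromosome 12 at 96036021 to 96036092, stood at 145, 243.5 and 331 CPM in G8, against 2367, 486 and 528 CPM in mock (-2.23, adjusted p = 0.0182). tRNA-Thr-CGT-2-1 stood at 3.63, 3.57 and 6.34 CPM in G8, against 15.0, 10.4 and 7.66 CPM in mock (-1.24, adjusted p = 0.0273). Both calls ended without G8 libraries 1 and 2 (-1.82, adjusted p = 0.307, and -0.84, adjusted p = 0.405). A tRNA-like row on chromosome 7 at 57170776 to 57170844 had the largest fall among the structured rows named, at 3.27, 2.14 and 4.003 CPM in G8, against 22.3, 28.01 and 26.2 CPM in mock (-2.99, SE 0.417, adjusted p = 0.000421). Other copies were picked after their values were seen. tRNA-Ala-AGC-6-1 stood at 23.6, 23.2 and 25.8 CPM in G8, against 7.90, 8.33 and 7.18 CPM in mock, and rose (1.63, adjusted p = 0.000208). tRNA-Gly-CCC-4-1 stood at 232, 350 and 117.6 CPM in G8, against 111, 75.8 and 76.6 CPM in mock (1.41, adjusted p = 0.0125), and tRNA-Asn-GTT-10-1 at 299, 242 and 142 CPM in G8, against 108.6, 95.3 and 130.5 CPM in mock (1.03, adjusted p = 0.0184). In these last rows G8 library 3 nearly met mock, and without G8 libraries 1 and 2 both calls ended, at 0.37 (adjusted p = 0.692) and 0.30 (adjusted p = 0.721).

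A row annotated as the precursor of mir-720, a sequence that derives from a tRNA, had the largest rise among the structured rows named, on chromosome 15 at 88538579 to 88538687. It stood at 5.82, 3.39 and 41.7 CPM in G8, against 2.36, 1.61 and 2.16 CPM in mock (3.12, SE 0.675, adjusted p = 0.0105). G8 library 3 carried most of this, and the other pair lay above mock by much less. The call ended with only the 6 G8 and mock libraries fitted (adjusted p = 0.0967). It also ended with the replicate number as a block (adjusted p = 0.0779).

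The Pol II made spliceosomal RNAs (U1, U2, U4, U5 and their minor counterparts) leaned higher. Their sum was 25631, 35473 and 16162 CPM in G8, against 20474, 11574 and 10625 CPM in mock. The groups overlap through mock library 1, and the sum was not called (0.86, SE 0.314, adjusted p = 0.0861), but it passed without mock library 1 (1.23, adjusted p = 0.035) and without G8 library 3 (1.12, adjusted p = 0.0221). Of 75 tested rows 14 rose and 2 fell, against 2.94% and 2.85% over all rows. The median of 0.30 turned to -0.05 with library totals, where 3 rose and 7 fell, and without G8 libraries 1 and 2 only 2 rose and none fell.

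Within that group U2, which recognises the branch point, had 4 of 26 rows risen, none fallen and a median of 1.08. U1, which recognises the 5′ splice site, had 9 of 34 risen and 1 fallen with a median of -0.11. The shares over all rows were 2.94% called higher and 2.85% called lower. A U2 row inside GSKIP on chromosome 14 at 96384624 to 96384815 stood at 22.2, 31.8 and 24.2 CPM in G8, against 8.87, 7.43 and 7.54 CPM in mock (1.71, SE 0.208, adjusted p = 0.000147). Another U2 row on chromosome 5 at 157976766 to 157976956 stood at 18.9, 21.6 and 18.7 CPM in G8, against 7.63, 7.03 and 5.39 CPM in mock (1.56, SE 0.201, adjusted p = 0.000208). In both, the G8 libraries were close to each other and at least 2 times every mock library. A U1 gene on chromosome 1, RNU1-1, chosen after its values were seen, stood at 453, 632.5 and 312.5 CPM in G8, against 190, 213 and 195 CPM in mock (1.23, adjusted p = 0.0184), and its call ended without G8 libraries 1 and 2 (0.59, adjusted p = 0.495). U5, part of the same tri-snRNP as U6, had no row risen and 1 of 7 fallen.

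C/D box snoRNAs, which guide 2′-O-methylation of ribosomal RNA, took 8.86%, 8.88% and 7.44% of counts in G8, against 11.4%, 6.02% and 6.01% in mock. The share of mock library 1 lay above all G8 libraries, and those of mock libraries 2 and 3 below. Of 210 tested rows 26 rose and 1 fell, against 2.94% and 2.85% over all rows, with a median of 0.62. Without mock library 1 the counts were 68 and 1 and the sum was called (0.99, adjusted p = 0.0373), against 0.47 (adjusted p = 0.462) with it. Without G8 library 1, G8 library 2, mock library 2 or mock library 3, in that order, 9, 8, 4 and 4 rose, and without G8 library 3, 41 rose and 4 fell. Without G8 libraries 1 and 2 only 7 rose and none fell, and with library totals 5 rose and 3 fell.

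SNORD121B, which overlaps an annotated exon of UBAP2, stood at 46.3, 76.6 and 61.3 CPM in G8, against 24.4, 15.2 and 15.0 CPM in mock (1.76, SE 0.269, adjusted p = 0.000934). Its relative SNORD121A in the same gene, chosen after its values were seen, stood at 33.6, 68.0 and 57.6 CPM in G8, against 32.4, 15.4 and 15.0 CPM in mock (1.35, SE 0.350, adjusted p = 0.0298). All G8 libraries lay above all mock libraries in both, though for SNORD121A G8 library 1 and mock library 1 nearly meet, and its call ended without G8 libraries 1 and 2 (adjusted p = 0.113). SNORD91B, inside TSR1 on chromosome 17, stood at 7.45, 6.07 and 9.34 CPM in G8, against 1.11, 4.22 and 2.27 CPM in mock (1.55, SE 0.335, adjusted p = 0.0106). The SNORD91B call ended with library totals (adjusted p = 0.0618) and with only the 6 G8 and mock libraries fitted (adjusted p = 0.0839). It also ended with the replicate number as a block (adjusted p = 0.0791).

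Of the abundant C/D rows picked after their values were seen, SNORD42B in RPL23A stood at 885, 1031 and 537.5 CPM in G8, against 511, 227 and 203 CPM in mock (1.38, adjusted p = 0.0312). SNORD53B in WDR43 stood at 324, 277 and 161 CPM in G8, against 144, 71.9 and 78.0 CPM in mock (1.37, adjusted p = 0.015). SNORD70B in NOP58, a core C/D protein gene, stood at 139, 119 and 89.3 CPM in G8, against 73.2, 31.0 and 35.8 CPM in mock (1.31, adjusted p = 0.0183). In all 3 the third G8 library and the first mock library were the nearest to the other group. All 3 calls ended without G8 libraries 1 and 2, at 0.72 (adjusted p = 0.546) for SNORD42B, 0.66 (adjusted p = 0.5) for SNORD53B and 0.89 (adjusted p = 0.366) for SNORD70B.

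Differences between groups of C/D snoRNAs were not tested. The counts below stand beside 2.94% called higher and 2.85% called lower over all rows. The 10 tested snoRNAs hosted by GAS5 had no call and a median of -0.27, and the 15 listed for pre-rRNA processing had 1 risen and a median of -0.18. That list also names the H/ACA snoRNAs SNORA73A and SNORA73B. It shares SNORD22 with the SNHG1 list, so the groups overlap. SNORD3A, the U3 snoRNA needed for 18S release, stood at 29.3, 23.4 and 36.8 CPM in G8, against 61.7, 27.3 and 92.4 CPM in mock, and was not called (-1.02, SE 0.684, adjusted p = 0.443). SNORD118, the U8 snoRNA, stood at 121, 122.6 and 89.8 CPM in G8, against 116.5, 110.5 and 122 CPM in mock (-0.07). The 36 snoRNAs of imprinted loci had 3 risen and a median of 0.46, the 8 hosted by SNHG1 had 1 risen and a median of 0.56, and the 144 others 22 risen, 1 fallen and a median of 0.74.

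H/ACA snoRNAs, which guide pseudouridylation, had 7 of 96 rows risen and 2 fallen, where 2.94% of all rows were called higher and 2.85% lower. Their median was 0.21, and it turned to -0.13 with library totals. Without G8 libraries 1 and 2, 6 rose and none fell. SNORA80E in KHDC4 on chromosome 1, chosen after its values were seen, stood at 221, 184 and 375 CPM in G8, against 90.3, 125 and 115.2 CPM in mock (1.24, SE 0.292, adjusted p = 0.0171). Its call ended with library totals (adjusted p = 0.117) and with only the 6 G8 and mock libraries fitted (adjusted p = 0.0835). It also ended with the replicate number as a block (adjusted p = 0.0945). The scaRNAs, which guide changes on spliceosomal RNAs in Cajal bodies, had 3 of 21 rows risen, none fallen and a median of 0.40, and no row was called without G8 libraries 1 and 2.

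Ribosomal RNA fragments of 18S, 28S and 5.8S took 64.1%, 64.5% and 63.1% of counts in G8, against 52.1%, 59.8% and 61.1% in mock. All 3 G8 libraries lay above all 3 mock libraries. On the TMM scale the sum was higher by 0.55 (SE 0.134, adjusted p = 0.017), while with library totals it was 0.15 (adjusted p = 0.431) and without G8 libraries 1 and 2 it was 0.12 (adjusted p = 0.595). Only 1 of the 62 tested rows rose and none fell, against 2.94% and 2.85% over all rows.

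Mitochondrial RNAs are copied as polycistronic transcripts by a separate polymerase. MT-RNR1 and MT-RNR2, the mitochondrial rRNAs, gave 0.02 and 0.06. Of the 22 mitochondrial tRNAs only MT-TF was called. It stood at 1131, 1110 and 1944 CPM in G8, against 1979, 3401 and 2757 CPM in mock (-0.96, SE 0.261, adjusted p = 0.0376). G8 library 3 nearly reached mock library 1, and without G8 libraries 1 and 2 the call was lost (-0.54). MT-TP and MT-TT also had all G8 libraries below all mock libraries and missed the threshold (-0.74, adjusted p = 0.0612, and -0.72, adjusted p = 0.0702), and with library totals both were called lower (-1.05, adjusted p = 0.0207, and -1.05, adjusted p = 0.0126). At the other end MT-TK gave 0.65 (adjusted p = 0.214). The median of the 14 heavy-strand tRNAs was -0.03 and that of the 8 light-strand tRNAs 0.09. A row on chromosome 4 at 155464006 to 155465338 that matches mitochondrial rRNA fell, at 3.998, 2.68 and 19.9 CPM in G8, against 48.0, 35.4 and 28.2 CPM in mock (-2.01, SE 0.476, adjusted p = 0.0182). That call ended without G8 libraries 1 and 2 (-0.96, adjusted p = 0.234). The 8 other mitochondrial rows summed to 10260, 9022 and 9290 CPM in G8, against 10988, 12357 and 11793 CPM in mock, with every G8 library below every mock library. Their sum missed the threshold (-0.30, SE 0.0962, adjusted p = 0.0508), and it was called lower with DESeq2's size factors (-0.31, adjusted p = 0.0476) and with library totals (-0.67, adjusted p = 0.0329). In 6 of the 8 rows all G8 libraries lay below all mock libraries, against 1044 of all 9531 rows. Of the 8 rows 1 was called lower, against 2.85% over all rows.

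MicroRNA rows followed the split within G8. Of 185 tested, none rose and 2 fell, against 2.94% and 2.85% over all rows. Without G8 library 3 there were 28 calls, 5 higher and 23 lower, and without G8 libraries 1 and 2 there were 7, all higher, so the direction depends on which G8 libraries are used. MIR92A1 and MIR92A2, from the MIR17HG cluster and its X-linked relative, share the mature miR-92a-3p. MIR92A1 stood at 110, 85.0 and 260 CPM in G8, against 222, 179 and 173 CPM in mock (-0.34, SE 0.379, adjusted p = 0.679). MIR191 stood at 49.2, 35.5 and 181 CPM in G8, against 103, 99.7 and 79.1 CPM in mock, and MIR30E at 47.8, 33.6 and 143 CPM in G8, against 106, 79.4 and 59.4 CPM in mock. In these 3 rows libraries 1 and 2 of G8 lay below every mock library and library 3 above every one.

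MIR148A did not follow that order. It stood at 74.3, 55.7 and 112.5 CPM in G8, against 160, 158 and 135 CPM in mock, with every G8 library below every mock library (-0.90, SE 0.315, adjusted p = 0.101), and with library totals it was called (-1.19). Its row spans only 1 arm of the hairpin by its coordinates but lists identifiers of both the precursor and the mature form. Which reads lie behind its counts is therefore uncertain, and the same holds for the row of MIR155. MIRLET7I stood at 42.0, 30.5 and 78.9 CPM in G8, against 141, 79.2 and 69.3 CPM in mock (-0.93, adjusted p = 0.164). All 12 let-7 rows were tested, none was called, 1 had a positive fold change and the median was -0.46. MIR6723, MIR10393, which lies in an exon of B2M, and MIR423, which overlaps MIR3184, were between -0.13 and 0.10 and show little of the split between G8 libraries.

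MIR4709, which lies in an exon of NPC2, was among the pair of microRNA rows called lower, at 3.45, 3.57 and 9.90 CPM in G8, against 17.6, 17.5 and 12.9 CPM in mock (-1.43, SE 0.319, adjusted p = 0.0129). The call ended without G8 libraries 1 and 2 (-0.75, adjusted p = 0.306). Reads of NPC2 cannot be told from it in these counts. The blood lineage rows MIR155, MIR142, MIR223, MIR146A and MIR342 lay between -0.32 and 0.45 and none was called. MIR155 alone stood at 23.1, 20.2 and 81.1 CPM in G8, against 52.3, 50.9 and 53.3 CPM in mock.

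Long non-coding RNA was the sole annotation of 8018 of the rows tested, and 6146 of them overlap an exon of a coding gene. Since strand is not counted, such a row can hold fragments of the coding RNA. The test called 413 of the 8018, 5.15%, with 186 higher in G8 and 227 lower. Without G8 libraries 1 and 2, 44 were higher and 87 lower, and with library totals 56 and 558. LINC01357, on chromosome 1 at 112850076 to 112877867, stood at 7.27, 10.2 and 9.01 CPM in G8, against 1.25, 1.10 and 2.16 CPM in mock (2.55, SE 0.347, adjusted p = 0.000332). A row on X at 113801693 to 113828676 (NONHSAG055125.2) stood at 8.72, 8.57 and 9.56 CPM in G8, against 1.94, 1.41 and 1.80 CPM in mock (2.39, SE 0.234, adjusted p = 1.93e-05). In these rows the G8 libraries lay close together, library 3 included. AC007036.3, over an exon of MTURN, rose by 2.04 and AC125603.1 on chromosome 12 by 1.88.

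The falls were larger. lnc-GEMIN6-1, over an exon of the helicase gene DHX57 on chromosome 2 at 38817890 to 38820770, stood at 1.64, 1.43 and 0.445 CPM in G8, against 21.8, 19.9 and 21.3 CPM in mock (-4.26, SE 0.362, adjusted p = 3.52e-06). lnc-CCL28-2, over an exon of the cholesterol synthesis gene HMGCS1 on chromosome 5, stood at 0.545, 0.893 and 1.78 CPM in G8, against 12.1, 8.43 and 7.42 CPM in mock (-2.97, adjusted p = 0.000121). AL138930.1, over an exon of the leukocyte receptor gene CD84 on chromosome 1, stood at 1.45, 3.39 and 2.89 CPM in G8, against 16.8, 15.8 and 16.8 CPM in mock (-2.64, SE 0.220, adjusted p = 3.45e-06).

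AC099063.1, over an exon of the interferon-induced gene GBP5, was picked after its values were seen and had 0 counts in all 3 G8 libraries, against 21, 21 and 29 counts in mock. Against a floor of 3 counts over the G8 group, the mock mean was 19.0-fold higher. AC079466.1 on chromosome 19, picked in the same way, also had 0 counts in all 3 G8 libraries, against 17, 23 and 15 in mock. Against the same floor its mock mean was 14.4-fold higher. Both rows were picked for these 0 counts, and G8 added nothing to their passing the filter on low counts, so no p-value is given for them.

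The long non-coding rows were also laid out along the genome. In windows of 20 Mb with at least 20 tested rows, 19 of 146 windows had a median log2 fold change more than 0.3 away from that of all such rows, 6 higher and 13 lower, and the other windows ran from -0.26 to 0.24. The 19 windows form 7 segments, and since the segments were picked by these values they are described without a test. They hold 983 rows, 12.3% of those tested, and 162 of the 413 called, 39.2%. Inside them 16.5% of rows were called, and outside 3.57%. The windows were picked by the same fold changes, so a higher share inside follows at least in part from that choice. Medians below are relative to that of all long non-coding rows.

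**Figure D4:**
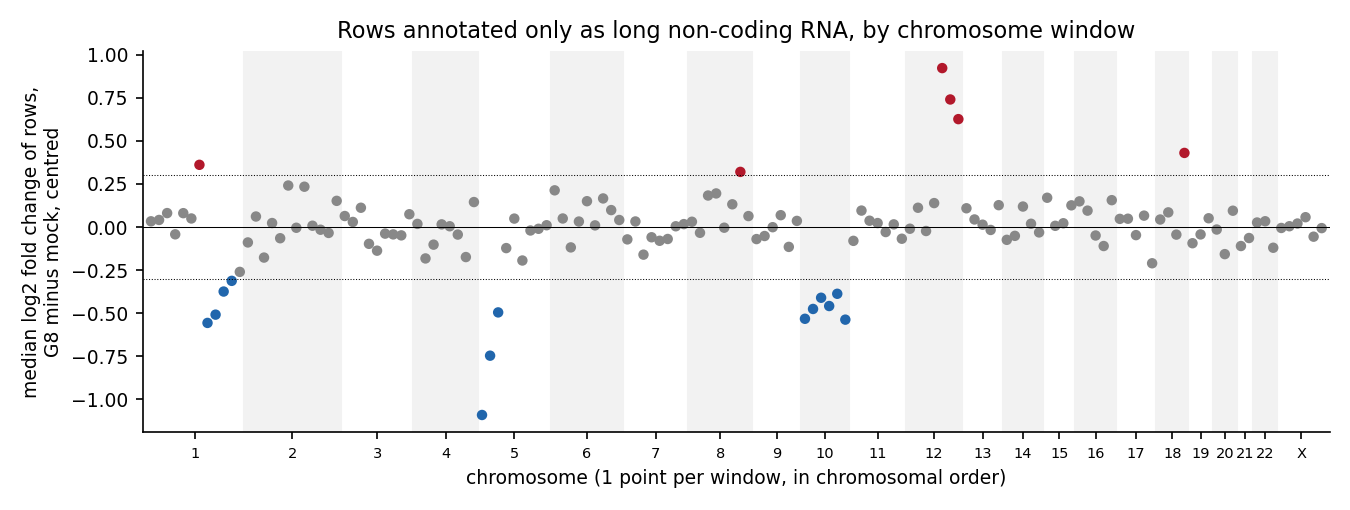
Median log2 fold change, G8 minus mock, of rows with a long non-coding annotation alone (y axis, relative to the median of all such rows) in each window of 20 Mb (1 point per window, x axis in chromosomal order, dotted lines at 0.3 and -0.3). Windows past the lines are red or blue and cluster on chromosomes 1, 5, 10 and 12, with single windows on 8 and 18.

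The first 60 Mb of chromosome 5 had the lowest median. Of 119 rows 40 fell and none rose, with a median of -0.83. Relative to the mean of the mock libraries, the median of these rows was -0.67, -0.65 and -0.82 in G8 libraries 1, 2 and 3, and -0.01 to 0.02 in the mock libraries. Chromosome 12 from 80 Mb on had the highest, with 43 of 157 rows risen, none fallen and a median of 0.73. It was 0.58, 0.62 and 0.57 in G8 libraries 1, 2 and 3, and -0.01 to 0.04 in the mock libraries. All 3 G8 libraries thus carry both shifts at about the same size, whatever their microRNA share.

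Chromosome 1 held shifts in both directions. Between 140 and 160 Mb 12 of 150 rows rose and none fell, with a median of 0.36, and between 160 and 240 Mb 32 of 252 rows fell and 4 rose, with a median of -0.43. Chromosome 10 up to 120 Mb had 16 of 215 rows fallen and none risen, with a median of -0.46. Smaller shifts upward lay on chromosome 8 between 120 and 140 Mb, with 10 of 56 rows risen, 1 fallen and a median of 0.32, and on chromosome 18 from 60 Mb, with 4 of 34 rows risen and a median of 0.43. The chromosome 18 median fell to 0.16 without G8 libraries 1 and 2, while the other 6 segments kept their direction beyond 0.2 in every alternative run. Examples on chromosome 8, chosen after their values were seen, were HSALNG0068551 at 129216466 to 129241240, at 26.5, 28.7 and 26.1 CPM in G8, against 7.49, 8.23 and 7.18 CPM in mock (1.82, adjusted p = 3.45e-06), and CCDC26, a non-coding gene of myeloid leukaemia (1.35, adjusted p = 0.00759). The CCDC26 call ended with only the 6 G8 and mock libraries fitted (adjusted p = 0.0651). It also ended with the replicate number as a block (adjusted p = 0.0568).

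The other THP-1 groups with end repair, A4, A7 and E4, carry some of these segments and not others, and their values rest on the same 3 mock libraries. On chromosome 5 the medians were -0.10 to 0.02 in A4, -0.78 to -0.67 in A7 and -0.76 to -0.72 in E4. On chromosome 12 they were -0.12 to -0.10 in A4, 0.63 to 0.71 in A7 and 0.66 to 0.67 in E4. On chromosome 10 all 4 THP-1 groups lay below mock, at -0.38 to -0.27 in A4, -0.45 to -0.37 in A7 and -0.47 to -0.38 in E4. The chromosome 1 segments were at -0.03 to 0.09 in A4, A7 and E4 alike, against 0.27 to 0.34 in G8 for the rising one and -0.40 to -0.33 in G8 for the falling one. The chromosome 8 segment was at 0.21 to 0.30 in G8, -0.02 to 0.22 in A4, -0.06 to 0.03 in A7 and -0.12 to 0.03 in E4. That of chromosome 18 was at 0.15 to 0.48 in G8, -0.03 to 0.18 in A4, -0.03 to 0.16 in A7 and -0.05 to 0.09 in E4. A4 thus overlaps G8 on both, and A7 on chromosome 18.

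**Figure D5:**
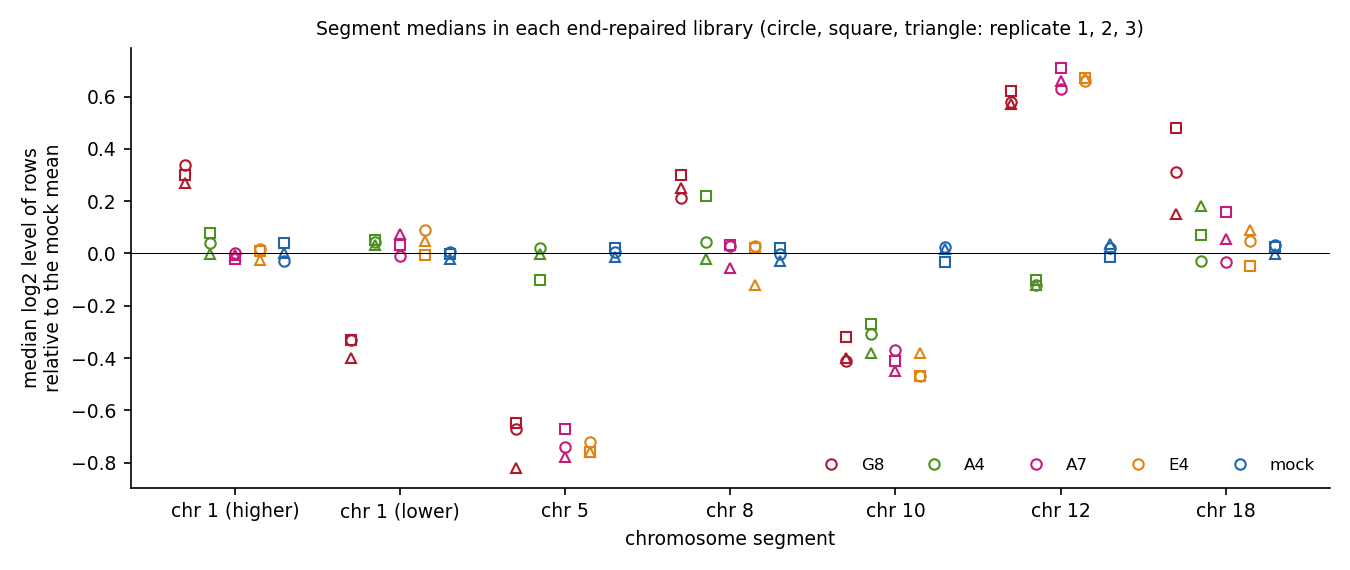
Median log2 level, relative to the mock mean, of the long non-coding rows in each of the 7 segments (x axis) for every end-repaired library (y axis), with G8, A4, A7, E4 and mock left to right and circle, square and triangle for replicates 1, 2 and 3. Every G8 library lies at least 0.15 from 0 in all 7 segments, A7 and E4 lie more than 0.3 from 0 on chromosomes 5, 10 and 12, and the mock libraries run from -0.03 to 0.04.

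The median of the short structured rows had the sign of its segment in 5 of 7, though few rows were called. This was not tested against structured rows elsewhere. The families also differ in their own medians, at -0.16 for nuclear tRNA and 0.62 for C/D snoRNA. On chromosome 1, 40 structured rows of the falling segment and 29 of the rising one are tRNAs. The 93 structured rows of the falling chromosome 1 segment had a median of -0.28, the 8 on chromosome 5 of -0.58, the 28 on chromosome 10 of -0.27, the 20 on chromosome 12 of 0.22 and the 55 of the rising chromosome 1 segment of 0.12. The 4 on chromosome 8 (-0.24) and the 2 on chromosome 18 (-0.92) did not have the sign of their segment. Over all rows 2.94% were called higher and 2.85% lower. Calls ran in both directions: 3 rose and 3 fell in the rising segment of chromosome 12, 2 rose and 1 fell in the falling one of chromosome 10, 6 rose and 1 fell in the rising one of chromosome 1, and 1 rose and 4 fell in its falling one. tRNA-Glu-TTC-3-1 lies in the falling segment of chromosome 1, and tRNA-Ala-TGC-2-1 and tRNA-Asp-GTC-1-2, which moved in opposite directions, both lie in that of chromosome 12. What makes whole segments move together was not tested.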

How the data were processed

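Small RNA of 3 G8 and 3 mock end-repaired samples was sequenced. The authors deposited raw counts per annotated row on GRCh38, without normalization. Per the submitters' processing notes, the tools were Trim Galore, FastQC, Bowtie2 2.3.5.1, SAMtools 1.9, deepTools 3.2.1 and bedtools 2.28.0; the handling of multiply aligned reads was not given there. All 172 small RNAs that lie inside long non-coding rows of the other strand had no more counts than those rows, so strand was ignored and a read counts in each row it overlaps. Of 175946 rows, 84735 were kept that overlap by at most 3 bases, structured RNAs of up to 500 bases first.

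edgeR 4.0.16 (R 4.3.3; quasi-likelihood test, TMM, filterByExpr, Benjamini-Hochberg threshold of 0.05) was fitted to the 15 end-repaired libraries of A4, A7, E4, G8 and mock together, which share 1 estimate of the spread, and the contrast was G8 minus mock. The 6 G8 and mock libraries held 6556219 to 7733993 kept counts, and 99.3% to 99.6% of these lay in tested rows. Sums by family (32) and isoacceptor (48, at least 30 counts) used the same scaling. The fits were tested on simulated data. Nothing says that replicates were separate cultures, so the p-values may reflect technical spread alone. Replicate libraries differed beyond sampling noise (chi-square per row of 6.8 to 84.4). Coding overlap was read from GENCODE v29 with bedtools 2.31.1.

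Rows were named by rule: Pol III family members, the 8 largest called rises and falls among structured rows and the 4 largest among long non-coding rows with separate groups and at least median abundance (copies once), mitochondrial tRNAs and rRNAs, the 10 most abundant microRNAs and blood markers. Of these, 1 long non-coding row is not reported here. The members, lists and markers were chosen with earlier results of these data known. The marker lists of cycling cells, monocyte maturation and fibroblasts had no row called. Alternatives were other scalings and filters, DESeq2 1.42.0, a replicate block and left-out libraries.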

Additional observations from a re-analysis of the deposited data

How the results depend on the processing

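The 552 rows called became 551 with DESeq2's size factors (545 shared with those called at first), 781 with library totals (363 shared), 333 with factors from microRNA rows (201 higher, 132 lower), 582 without 18S, 28S and 5.8S rRNA rows, 684 with no filter on low counts, 618 with DESeq2's Wald test (511 shared), 226 with only the 6 libraries, 212 without G8 libraries 1 and 2 together, and 3032 of 35770 when every deposited row was tested. Leaving out 1 library gave 290 to 933 rows, the highest without G8 library 3 and the lowest without mock library 2, and 338 and 310 without G8 library 2 and mock library 3. The 5 family sums became 3 with library totals, 3 without rRNA rows, 1 with only the 6 libraries, 0 without G8 libraries 1 and 2, and 1 to 6 with 1 library left out. The 0 isoacceptor sums became 5 with library totals, 3 without G8 libraries 1 and 2, and 0 to 20 with 1 library left out, the 20 without G8 library 3. With library totals, U6 was the 1 family sum called higher, and the 2 called lower were other mitochondrial rows and Y RNA pseudogenes. All 5 isoacceptor sums called in that setting were lower. The labels do not say what a replicate number marks. Residuals of equal numbers correlated at 0.225, -0.10 and 0.10. These values cannot decide whether the numbers pair the groups, since 1 library of each group stands apart from its other pair. With the number as a replicate block 129 rows, 1 family sum (U6, 1.12) and 0 isoacceptor sums were called. Each alternative was compared in sign with the first fit alone. No family sum or named row had opposite signs in the 2 where at least 1 of them called it. Alternatives were not compared with each other. Signs of the other called rows were not compared. Each family sum was counted once per alternative that refitted it. So counted, 374 results stayed on their side of the threshold, called or not called, 33 fell below it and 8 passed it. Named rows counted in the same way gave 1099 results that stayed, 142 that fell below and 15 that passed. The cause of these changes was not tested. At this depth, rows of a few counts, such as VTRNA1-3 and RNU6ATAC, could show only large differences.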
